A study of Homo sapiens with 3 samples.

Results

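Calmodulin is the main intracellular calcium sensor. Once loaded with calcium it binds and switches on a set of enzymes, among them the calmodulin-dependent protein kinases and the phosphatase calcineurin. In the kinase cascade, CaMKK phosphorylates and activates CaMKI and also AMP-activated kinase. CaMKII, once switched on by calmodulin, keeps itself active by autophosphorylation. Estrogen receptor α also binds calmodulin, and the peptide ERα17p copies the stretch of the receptor that does so, which is why this family was examined after treatment with the hormone or the peptide.

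The family was set as 9 genes, namely CALM2 and CALM3 (calmodulin), CAMKK2 (the upstream kinase), CAMK1 and CAMK1D (CaMKI), CAMK2D and CAMK2G (CaMKII), PPP3CA (the catalytic subunit of calcineurin) and STRN (striatin, a calmodulin-binding scaffold). Members were the probe sets, other than controls, that the platform annotation assigns to exactly 1 of these genes. This gave 32 probe sets for 7 of the 9 genes, out of 41091 probe sets and 19775 genes with such an assignment. CALM2 and CALM3 had no probe set under their names in the annotation used here, so calmodulin itself was not analysed here. What follows therefore describes calmodulin-dependent kinases, calcineurin and striatin.

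RNA came from T47D cells, an established, estrogen receptor α-positive line from a human breast cancer. All cells spent 4 h in medium with 10% charcoal-stripped, hormone-poor serum and were then treated for 3 h. The vehicle cells received 0.1% ethanol, the estradiol cells 1 µM estradiol and the ERα17p cells 1 µM ERα17p. The labels used here name no solvent for the treated cells. Each group had 1 Affymetrix HG-U133 Plus 2 array, so no difference has an error between cultures, and no test was possible. The deposited values are RMA values taken as log2, set by the authors relative to a baseline that is not stated, so 0 is that baseline and not absence of signal, and absolute levels cannot be read. Since no level was kept, the identity of the cells could not be checked from the presence of luminal markers. Between arrays, the luminal marker PGR, an estrogen-induced gene, was at 1.44 ± 0.28 (SD, n = 2 probe sets) for estradiol minus vehicle and 0.89 ± 0.041 for ERα17p minus vehicle, and the other luminal markers (ESR1, KRT8, KRT18, KRT19, GATA3 and FOXA1) lay between −0.19 and 0.34. For ERα17p minus estradiol, FOXA1 was at 0.50 ± 0.051 (SD, n = 2 probe sets), GATA3 at 0.20 and ESR1 at 0.085. PGR, KRT8, KRT18 and KRT19 lay the other way, at −0.55, −0.21, −0.17 and −0.18. Of 5 markers of basal, stromal and blood cells, VIM was at 0.53 ± 0.55 (SD, n = 2 probe sets) and 0.42 ± 0.55 against the vehicle array and COL1A1 at −0.63 ± 0.66 (SD, n = 5 probe sets) and −0.44 ± 0.64, while KRT5, KRT14 and PTPRC lay between −0.30 and 0.20. The part of these in the results below was not tested. A difference of at least 1.5-fold (0.58 on the log2 scale) was used as a size limit. An SD given with a gene is over its probe sets within the same arrays.

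The vehicle array stood apart from both others. Leaving the controls aside, the SD over its probe sets was 0.43, while the estradiol array had 0.16 and the ERα17p array 0.17. For ACTB, the 3′ control probe set less the 5′ one gave 0.52 for vehicle, −0.29 for estradiol and −0.17 for ERα17p. For GAPDH that quantity was 0.39, −0.098 and 0.0071, and the mean of the 18S ribosomal RNA probe sets was −1.76, 0.11 and −0.0071. These array measures moved with every difference from the vehicle array below, and their part in those differences was not tested. The comparison of ERα17p with estradiol does not use the vehicle array.

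CAMK1 and CAMK2G carried the lowest members relative to the vehicle array and STRN the highest, so their promoter sequences are shown to let the upstream regions of members lying on opposite sides be compared. Each sequence is the 250 bases before the annotated transcription start, 5′ to 3′ on the gene's own strand, from RefSeq on GRCh38.p14. Capitals mark the GC box GGGCGG on either strand, the motif bound by Sp1-type factors, with overlapping matches run together.
CAMK1, chr3:9769948-9770197, minus strand: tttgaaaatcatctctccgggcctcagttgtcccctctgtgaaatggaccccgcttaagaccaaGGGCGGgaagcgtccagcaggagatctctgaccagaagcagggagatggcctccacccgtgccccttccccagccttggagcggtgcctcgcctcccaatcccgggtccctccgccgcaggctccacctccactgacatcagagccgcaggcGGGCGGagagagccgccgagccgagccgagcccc
CAMK2G, chr10:73874556-73874805, minus strand: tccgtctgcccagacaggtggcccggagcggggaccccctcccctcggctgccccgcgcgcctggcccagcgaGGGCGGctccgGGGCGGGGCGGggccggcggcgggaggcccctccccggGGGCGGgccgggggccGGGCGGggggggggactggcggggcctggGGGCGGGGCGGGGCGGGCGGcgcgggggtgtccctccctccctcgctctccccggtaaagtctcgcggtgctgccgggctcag
STRN, chr2:36966537-36966786, minus strand: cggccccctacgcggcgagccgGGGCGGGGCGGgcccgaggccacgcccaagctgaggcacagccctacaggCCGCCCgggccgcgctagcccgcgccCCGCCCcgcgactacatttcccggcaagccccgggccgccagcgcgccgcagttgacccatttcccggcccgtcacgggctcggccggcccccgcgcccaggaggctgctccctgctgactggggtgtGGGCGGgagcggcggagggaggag
The GC box occurred 2 times in the CAMK1 window, 9 times in the CAMK2G window and 5 times in the STRN window, overlapping matches counted separately. It is a common motif, present in 42.6% of all 35116 windows of this length. GC content was 66% for CAMK1, 84.8% for CAMK2G and 79.6% for STRN, against a median of 58% over all windows. GC boxes were thus found in the windows of the genes with the lowest member probe sets and of the gene with the highest. By gene mean, PPP3CA was above STRN, at 0.34 with estradiol and 0.65 with ERα17p against 0.28 and 0.38. CAMK2G and STRN each had probe sets on both sides of the vehicle array.

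Windows were found for 6 of the 7 genes with values, and PPP3CA had none in the table. None of the 6 genes had in its window the full palindromic estrogen response element, which 0.0399% of all windows hold, or its half-site AGGTCA, which 12.1% hold. The cAMP response element TGACGTCA, bound by the kinase target CREB, was likewise not in these windows and is in 1.65% of all. Its half-site TGACG, in 21.2% of all windows, was in that of STRN. The AP-1 site TGANTCA, in 6.57% of windows, was in none of the 6. The CCAAT box, in 32% of windows, was in those of CAMK1 and CAMKK2. All motifs were searched on both strands, the half-sites lie within the full elements, and a match is a run of letters and not a shown binding site.

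Against the vehicle array, CAMK1 and part of the CAMK2G and CAMKK2 probe sets were lower in both treated arrays, and part of the STRN probe sets were higher. PPP3CA was higher mainly in the ERα17p array, and the CAMK2D gene mean lay near 0. In the estradiol array, 3 of the 32 probe sets passed 1.5-fold upward (9.38%) and 6 downward (18.8%). Over all 54613 probe sets other than controls, 9.07% were this much higher and 9.78% this much lower, and over those with 1 gene 10.4% and 9.99%. In the ERα17p array, 7 members were higher (21.9%) and 6 lower (18.8%), where the shares over all probe sets were 8.92% and 10.2%, and over those with 1 gene 10.5% and 10.1%. The higher share in the estradiol array was thus near the background, and the other shares lay above it. Several of these probe sets belong to the same gene. The 6 lower ones stand for only 3 genes with either agent, and the 7 higher ones with ERα17p for STRN, PPP3CA and CAMKK2. Without the sets ending in _x_at or _s_at, 3 of 21 members were higher with ERα17p, all of them probe sets of STRN. When genes were counted in place of probe sets 1 was higher, PPP3CA. The median difference of the members was 0.043 for estradiol and 0.10 for ERα17p, against 0.0043 and 0.0046 over all probe sets, so the members did not lie to one side as a group. The RNA was from whole cultures, in which fewer cells with a transcript and less of it per cell cannot be told apart. At 2-fold, only STRN 236388_at was counted, as higher, with each agent. Of all probe sets other than controls, 3.24% were that much higher and 2.47% lower with estradiol, and 3.39% and 3.05% with ERα17p.

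**Figure D1:**
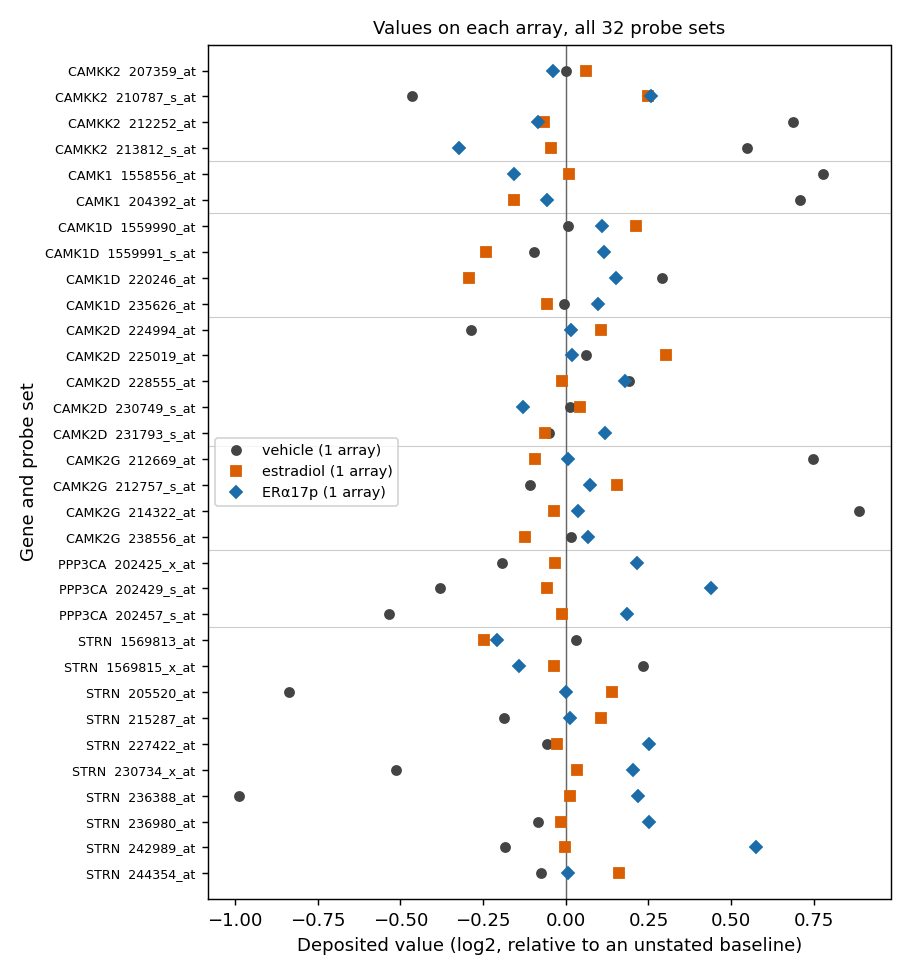
Deposited log2 value, relative to the unstated baseline (horizontal axis), of each of the 32 probe sets (vertical axis, grouped by gene) on the vehicle, estradiol and ERα17p arrays, 1 array each. The vehicle points run from −0.99 to 0.89, whereas the estradiol points lie between −0.29 and 0.30 and the ERα17p points between −0.32 and 0.57.

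CAMKK2, the kinase that activates CaMKI and AMP-activated kinase, had 4 probe sets that did not agree. Probe set 212252_at read 0.69 on the vehicle, −0.066 on the estradiol and −0.082 on the ERα17p array. Probe set 213812_s_at read 0.55, −0.044 and −0.32 in the same order. Both were therefore highest in the vehicle array, by 0.75 and 0.59 over estradiol and by 0.77 and 0.87 over ERα17p. Probe set 210787_s_at showed the opposite order, at −0.47 on the vehicle, 0.25 on the estradiol and 0.26 on the ERα17p array. The remaining probe set, 207359_at, stayed near the baseline, at 0.0016, 0.060 and −0.039. The gene mean of −0.14 ± 0.67 (SD, n = 4 probe sets) for estradiol and −0.24 ± 0.74 for ERα17p is an average over these opposite values and describes none of them.

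CAMK1, a CaMKI kinase acting below CaMKK, was the member gene with the largest mean difference from the vehicle array, and its probe sets had the smallest SD in both of those comparisons. Probe set 204392_at read 0.71 on the vehicle, −0.15 on the estradiol and −0.055 on the ERα17p array. Probe set 1558556_at read 0.78, 0.0085 and −0.16. Both were high in the vehicle array alone. The mean difference was −0.82 ± 0.067 (SD, n = 2 probe sets) for estradiol and −0.85 ± 0.12 for ERα17p. ERα17p minus estradiol was −0.16 for one probe set and 0.099 for the other, so the treated arrays were in no common order for this gene.

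CAMK1D, a second CaMKI kinase, did not share this pattern. Of its 4 probe sets only 220246_at approached the size limit, reading 0.29 on the vehicle, −0.29 on the estradiol and 0.15 on the ERα17p array. Its difference of −0.58 for estradiol was just short of 1.5-fold, and that for ERα17p was −0.14. The other probe sets differed from the vehicle array by −0.14 to 0.21 with estradiol and by 0.10 to 0.21 with ERα17p. The gene mean was −0.14 ± 0.33 (SD, n = 4 probe sets) and 0.069 ± 0.15. On the ERα17p array all 4 probe sets lay within a narrow band, from 0.097 to 0.15, and 3 of them were above their estradiol value.

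Among the CaMKII genes, CAMK2D, the δ chain, showed small differences of mixed sign. Its 5 probe sets ranged from −0.29 to 0.19 on the vehicle array, from −0.063 to 0.30 on the estradiol array and from −0.13 to 0.18 on the ERα17p array. Taken probe set by probe set, the differences from the vehicle array ran from −0.20 to 0.39 with estradiol and from −0.14 to 0.30 with ERα17p. The means were 0.090 ± 0.23 (SD, n = 5 probe sets) for estradiol and 0.054 ± 0.18 for ERα17p, and 0 of its probe sets reached 1.5-fold.

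CAMK2G, the γ chain, separated into distinct pairs of probe sets. Probe set 212669_at read 0.75 on the vehicle, −0.092 on the estradiol and 0.0068 on the ERα17p array. Probe set 214322_at read 0.89, −0.037 and 0.036. This pair was lower than in the vehicle array by 0.84 and 0.92 with estradiol and by 0.74 and 0.85 with ERα17p. The pair 212757_s_at and 238556_at differed by only 0.26 and −0.14 with estradiol and by 0.18 and 0.052 with ERα17p. The gene mean, −0.41 ± 0.57 (SD, n = 4 probe sets) for estradiol and −0.34 ± 0.53 for ERα17p, was smaller than the spread over the probe sets.

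PPP3CA, the calmodulin-activated phosphatase subunit that dephosphorylates NFAT factors, was the member whose probe sets were all ordered vehicle, estradiol, ERα17p from low to high. Probe set 202429_s_at read −0.38 on the vehicle, −0.056 on the estradiol and 0.44 on the ERα17p array. Probe set 202457_s_at read −0.53, −0.0099 and 0.18, and 202425_x_at read −0.19, −0.032 and 0.21. The ERα17p array was thus highest for each of the 3. The mean difference from the vehicle array was 0.34 ± 0.18 (SD, n = 3 probe sets) for estradiol, with 0 probe sets past 1.5-fold, and 0.65 ± 0.21 for ERα17p, with 2. All 3 identifiers end in _s_at or _x_at, which marks sets that can also bind other transcripts.

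STRN, the scaffold that binds calmodulin and assembles kinases around protein phosphatase 2A, was read by 10 probe sets. On the vehicle array they had a lowest value of −0.99, a median of −0.13 and a highest value of 0.23. The corresponding values were −0.25, 0.0051 and 0.16 with estradiol, and −0.21, 0.11 and 0.57 with ERα17p. Taken probe set by probe set, 8 of the 10 were higher than on the vehicle array with each agent. The largest differences came from 236388_at, which read −0.99 on the vehicle, 0.014 on the estradiol and 0.22 on the ERα17p array, and from 205520_at, which differed from the vehicle array by 0.98 and 0.84. With ERα17p, 230734_x_at at 0.71 and 242989_at at 0.76 were also past 1.5-fold, where estradiol gave 0.54 and 0.18. The sets 1569813_at and 1569815_x_at lay the other way, at −0.28 and −0.27 with estradiol and −0.24 and −0.37 with ERα17p. The gene mean was 0.28 ± 0.45 (SD, n = 10 probe sets) for estradiol and 0.38 ± 0.50 for ERα17p.

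**Figure D2:**
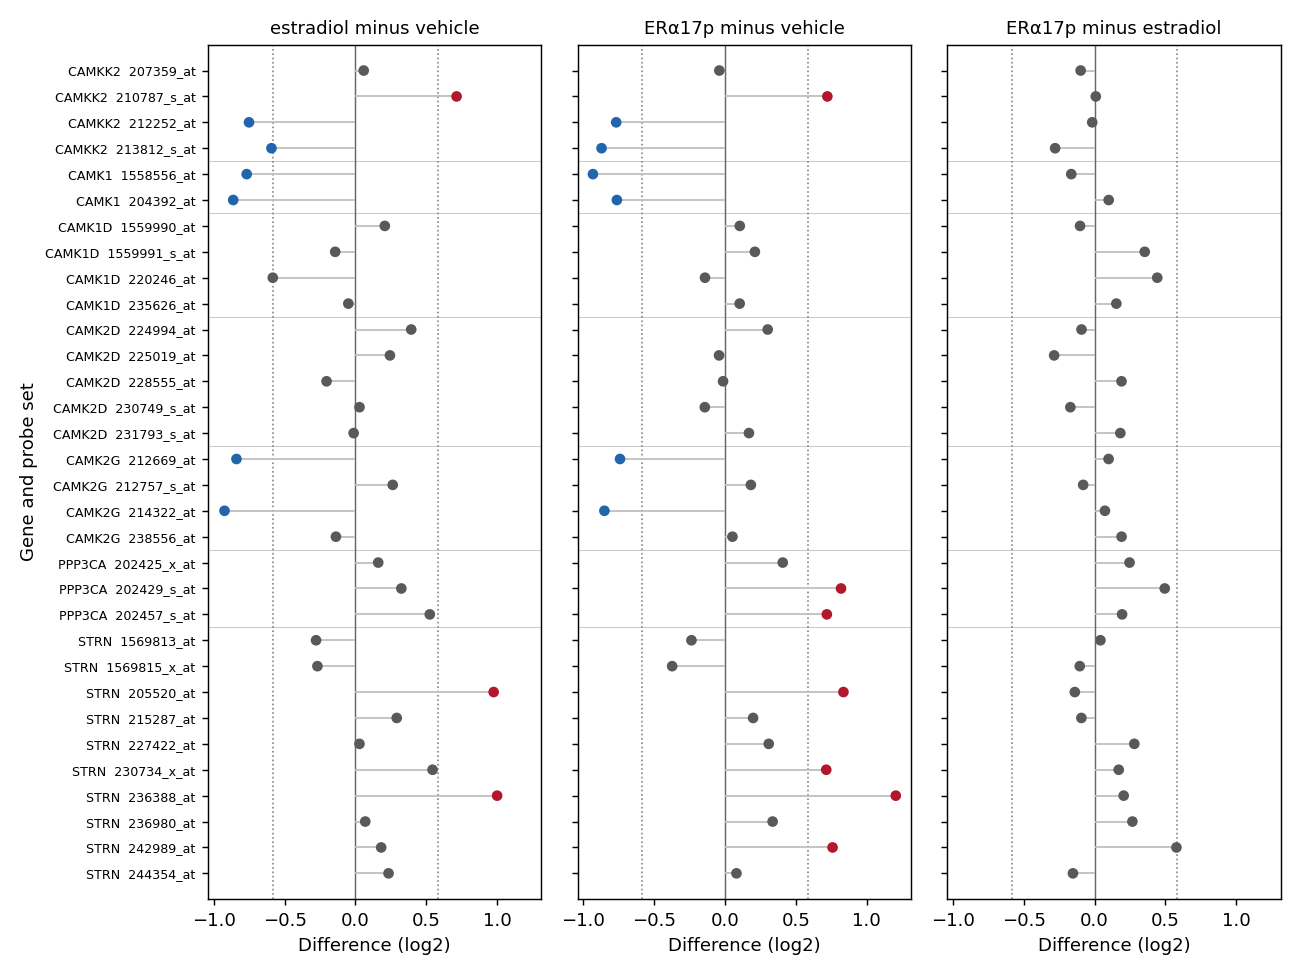
Difference between arrays on the log2 scale (horizontal axes) for each of the 32 probe sets (vertical axis), in the 3 comparisons; dotted lines mark 1.5-fold, red points lie beyond the upper line and blue points beyond the lower. The estradiol panel has 3 red and 6 blue points and the ERα17p panel 7 red and 6 blue, both after subtracting the same vehicle array, and the right panel has none past the lines.

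Both comparisons with the vehicle share 1 vehicle array, so a vehicle value away from the baseline enters both, and the probe sets they have in common are not read as a result. For the 9 probe sets past 1.5-fold with estradiol, the vehicle value lay between 0.47 and 0.99 from the baseline in size, while the largest value on either treated array was 0.32 in size. Over the 13 past it with either agent, the vehicle size went down to 0.18 and the treated size up to 0.57. Both of these were at STRN 242989_at, which read −0.18 on the vehicle and 0.57 on the ERα17p array. Whether the agents differ at any member beyond the spread between cultures could not be tested.

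The hormone and the peptide were set directly against each other at the same molar dose and time, without the vehicle array. None of the 32 member probe sets differed by 1.5-fold, where 0.809% of all probe sets other than controls were higher and 1.27% lower in the ERα17p array by that much. The members' differences ran from −0.29 to 0.58 with a median of 0.086, against −0.0012 over all probe sets. The largest was at STRN 242989_at, 0.58, just short of 1.5-fold, where the ERα17p array read 0.57 and the estradiol array −0.0034. PPP3CA was the gene with the largest mean, 0.31 ± 0.16 (SD, n = 3 probe sets), with all 3 probe sets higher in the ERα17p array, by 0.19 to 0.50. CAMK1D followed, at 0.21 ± 0.24 (SD, n = 4 probe sets), and STRN at 0.10 ± 0.24 (SD, n = 10). For CAMKK2 the mean was −0.096 ± 0.13 (SD, n = 4), for CAMK2G 0.070 ± 0.11 (SD, n = 4), for CAMK2D −0.036 ± 0.21 (SD, n = 5) and for CAMK1 −0.033 ± 0.19 (SD, n = 2). For comparison, the SD of this difference over all probe sets was 0.24, so most members lay within the general scatter between the treated arrays. ESR1, the gene of the receptor, differed by 0.085 ± 0.25 (SD, n = 9 probe sets) between ERα17p and estradiol, by 0.10 ± 0.20 between estradiol and vehicle and by 0.19 ± 0.24 between ERα17p and vehicle.

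The wider calcium and calmodulin pathway was read from 8 lists of 128 genes, of which 122 had a value. In the estradiol array, 7 of these genes passed 1.5-fold upward against the vehicle array (5.74%) and 13 downward (10.7%), where 6.48% and 8.42% of all 19775 genes were. In the ERα17p array, 13 were higher (10.7%) and 14 lower (11.5%), where 6.88% and 8.76% of all genes were. The median was 0.0061 and −0.0030, close to that of all genes, −0.0043 and 0.0011. Between ERα17p and estradiol 0 genes were higher and 1 lower by 1.5-fold, where 0.521% and 0.607% of all genes were. At 2-fold, 1 listed gene was higher and 2 lower with estradiol, where 1.57% and 1.63% of all genes were. With ERα17p 4 were higher and 2 lower, where 1.9% and 1.87% were. Between the treated arrays 0 were, where 0.0607% of all genes were higher and 0.086% lower. The 4 measured calmodulin-like genes had 0 past 1.5-fold with either agent. Of 19 other calmodulin-dependent kinases and their subunits and inhibitors, 1 was lower with each agent (5.26%) and 0 higher. It was PHKA2, a regulatory subunit of phosphorylase kinase, at −0.62 ± 0.38 (SD, n = 3 probe sets) with estradiol and −0.60 ± 0.12 with ERα17p.

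**Figure D3:**
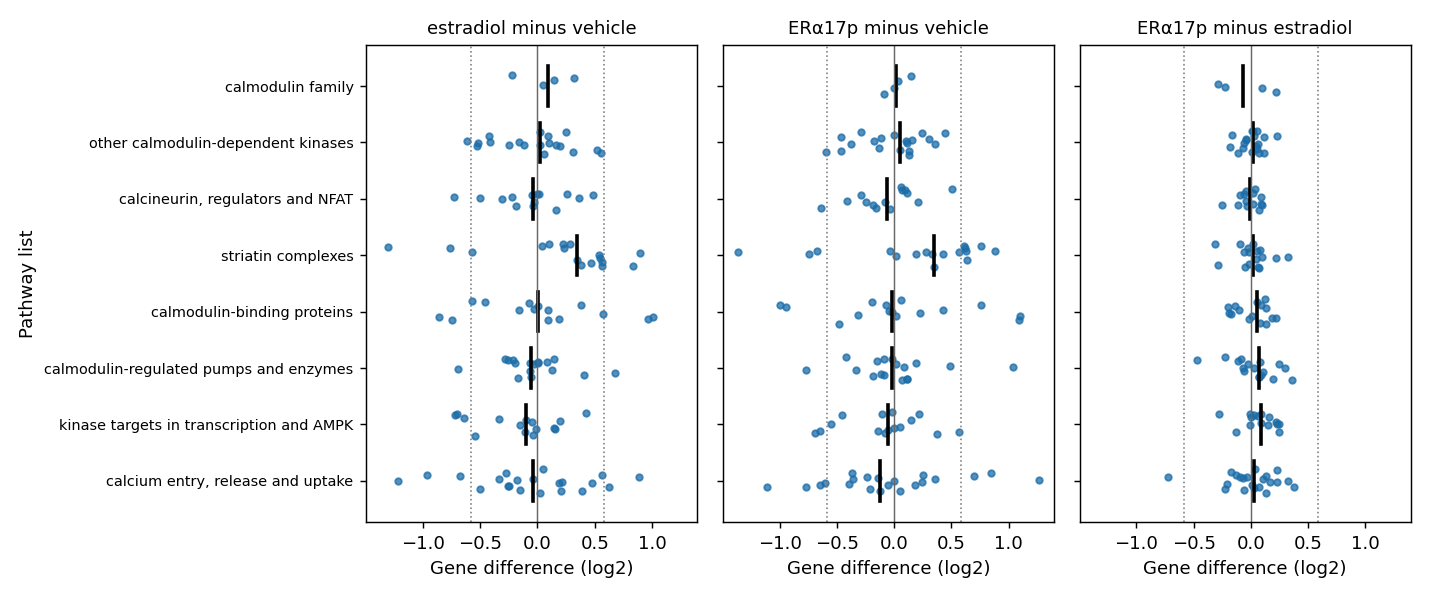
Gene difference on the log2 scale (horizontal axes; each point 1 gene, the mean of its probe sets) for the 8 pathway lists (vertical axis) in the 3 comparisons, with a black bar at each list's median and dotted lines at 1.5-fold; vertical scatter within a list has no meaning. The median of the striatin list is 0.35 in both comparisons with the vehicle array, and the other lists have medians between −0.13 and 0.094 there.

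Among partners of calcineurin, 1 of 14 genes was past 1.5-fold with each agent, as lower (7.14%). Over all genes, 8.42% were lower with estradiol and 8.76% with ERα17p. The gene was CABIN1, an inhibitor of calcineurin, at −0.73 ± 0.077 (SD, n = 2 probe sets) with estradiol and −0.64 ± 0.44 with ERα17p. The NFAT factors and the RCAN inhibitors were not past 1.5-fold, nor were the other catalytic subunits. Partners of striatin were more spread. Of 17 measured genes, 2 were higher and 2 lower with estradiol (11.8% each), where 6.48% and 8.42% of all genes were. With ERα17p 6 were higher (35.3%) and 3 lower (17.6%), where 6.88% and 8.76% of all genes were. The list medians were 0.35 and 0.35. MOB4, an adaptor of the complex, differed by 0.90 with estradiol and 0.61 with ERα17p (1 probe set), and the kinase STK26 by 0.83 ± 0.42 (SD, n = 2 probe sets) and 0.88 ± 0.52. PPP2CB, a catalytic subunit of protein phosphatase 2A, was at 0.54 ± 0.96 (SD, n = 2 probe sets) and 0.76 ± 0.77, so its probe sets disagreed. The scaffold subunit of the same phosphatase, PPP2R1A, lay the other way at −1.31 and −1.37 (1 probe set), as did the kinase STK25 at −0.76 and −0.74. Of the relatives of STRN itself, STRN4 was at −0.57 with estradiol and −0.67 with ERα17p, and STRN3 at 0.10 and 0.42. PDCD10, SIKE1 and FGFR1OP2 were at 0.55, 0.57 and 0.57 with estradiol, and past 1.5-fold with ERα17p at 0.63, 0.63 and 0.62. Genes of this list thus lay on both sides of the vehicle array, but mostly above it. Of the 17, 14 were above 0 with estradiol and 13 with ERα17p.

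Of 15 calmodulin-binding proteins, 2 were higher and 2 lower with estradiol (13.3% each), and 3 higher (20%) and 2 lower (13.3%) with ERα17p. Over all genes, 6.48% were higher and 8.42% lower with estradiol, and 6.88% and 8.76% with ERα17p. PCP4, a small protein that speeds calcium exchange on calmodulin, differed by 1.01 with estradiol and 1.10 with ERα17p (1 probe set). NRGN, neurogranin, which holds calcium-free calmodulin, lay at −0.857 and −0.998 (1 probe set). IQGAP1, a calmodulin-binding cytoskeletal scaffold, was at 0.97 ± 1.32 (SD, n = 3 probe sets) and 1.09 ± 1.10, with 1 probe set below 0. CAMSAP3, which caps microtubule minus ends, was at −0.75 ± 0.096 (SD, n = 2 probe sets) and −0.94 ± 0.15. Among 17 calmodulin-regulated pumps and enzymes, ATP2B1, the plasma membrane calcium pump that calmodulin stimulates, was at 0.67 ± 0.71 (SD, n = 3 probe sets) and 1.04 ± 0.56, and was above its estradiol value in the ERα17p array by 0.36 ± 0.16. ITPKC, a calmodulin-stimulated inositol trisphosphate kinase, was at −0.69 and −0.77 (1 probe set).

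Of 15 genes for transcription regulators and AMP-activated kinase subunits, 3 were lower with estradiol (20%) and 2 with ERα17p (13.3%), with 0 higher. Over all genes, 8.42% and 8.76% were lower and 6.48% and 6.88% higher. CRTC2, a coactivator of CREB, was at −0.72 and −0.69 (1 probe set). HDAC4, a histone deacetylase exported from the nucleus after CaMK phosphorylation, was at −0.64 ± 0.87 (SD, n = 3 probe sets) and −0.64 ± 0.70, and its probe sets disagreed. MEF2D, a transcription factor held back by that deacetylase, was at −0.70 ± 0.36 (SD, n = 3 probe sets) and −0.46 ± 0.40.

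Of 21 genes of calcium entry, release and uptake, 2 were higher (9.52%) and 3 lower (14.3%) with estradiol. With ERα17p 3 were higher (14.3%) and 4 lower (19%). The shares over all genes were 6.48% and 8.42% with estradiol, and 6.88% and 8.76% with ERα17p. The store-operated channel genes ORAI1, at −1.22 and −1.11, and ORAI3, at −0.97 and −0.65, were lower (1 probe set each). PLCB4, a phospholipase that makes inositol trisphosphate, was at 0.88 ± 0.61 (SD, n = 2 probe sets) and 1.26 ± 0.46, and its relative PLCG1 at −0.68 ± 0.11 (SD, n = 2 probe sets) and −0.60 ± 0.073. ITPR2, a receptor channel for inositol trisphosphate, was at 0.62 ± 0.91 (SD, n = 4 probe sets) and 0.85 ± 0.96. RYR1, a ryanodine receptor, was the 1 listed gene past 1.5-fold between the treated arrays, at −0.73 for ERα17p minus estradiol (1 probe set), and stood at −0.041 with estradiol and −0.77 with ERα17p against the vehicle array.

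Among the pathway genes, those whose differences lay closest to CAMK1 were STK25, ITPKC and NRGN, at Euclidean distances of 0.13, 0.15 and 0.19 over the 3 differences. With 3 arrays this measure holds little beyond a high value on the vehicle array, which read 0.70 for STK25, 0.68 for ITPKC and 0.85 for NRGN, against a mean of 0.74 for CAMK1.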

How the data were processed

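Total RNA of 3 T47D samples was hybridised to Affymetrix arrays with 54675 probe sets, 62 of them controls. For the deposited log2 values the submitters' processing notes name RMA. Its version, the log base and the later centring on a baseline were not given in the labels or file. Arrays were assigned by their labels. Probe sets with 1 gene (41091) were named from the platform annotation, and those with several (1801) or none (11721) were left out of gene results. Differences between arrays were taken per probe set and averaged per gene. The 3 comparisons were counted by size at 1.5-fold, with no test, as each group had 1 array. The number of arrays limits the precision. Named were all members, ESR1, and up to 4 genes of each list with the largest difference past 1.5-fold per comparison, plus the 3 pathway genes nearest in pattern to the member with the largest difference. In the striatin list, STRN3, STRN4, PDCD10, SIKE1 and FGFR1OP2 were named outside this rule. A further gene that was always to be named is not reported here. The members and lists were chosen with earlier results of these data known, and the promoter windows and motifs after the values were seen. Alternatives were a 2-fold limit, median centring, leaving out probe sets ending in _x_at or _s_at, genes in place of probe sets, and medians over probe sets in place of means. The computation was tested on simulated data. Python 3.11.15, numpy 2.4.6, pandas 2.3.3 and matplotlib 3.10.9 were used.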

Additional observations from a re-analysis of the deposited data

How the results depend on the processing

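At a 2-fold limit the member probe sets counted were 1 higher and 0 lower with estradiol, and 1 higher and 0 lower with ERα17p, the 1 being STRN 236388_at in both. The pathway genes were then 1 higher and 2 lower with estradiol, 4 higher and 2 lower with ERα17p, and 0 lower for ERα17p minus estradiol. Counting genes in place of probe sets gave 0 higher and 1 lower member with estradiol and 1 higher and 1 lower with ERα17p, because probe sets of 1 gene lay on both sides of the limit. Leaving out the sets ending in _x_at or _s_at left 21 member probe sets of 6 genes and none of PPP3CA. Of these 3, all of STRN, were higher with ERα17p, and 4 pathway genes were higher with estradiol. Median centring and, for the pathway genes, medians over probe sets left every count within 1.5 times its value, and no mean difference of a member gene moved by more than its SD over probe sets, which is wide for genes whose probe sets disagree. Without the sets ending in _x_at or _s_at, which could not be run for PPP3CA, CAMK2G with estradiol moved from −0.41 to −0.63, past 1.5-fold, and CAMKK2 from −0.14 to −0.35. With medians over probe sets, CAMK2D with ERα17p moved from 0.054 to −0.014. No count against the vehicle can be had without the vehicle array. No paired analysis was possible because each group had 1 array. Signal over background is unknown, since no absolute level was kept.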
